A study of Mus musculus with 24 samples.

Results

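The liver transcriptome of mice fed phloridzin at 0.5% of the diet was compared with that of mice fed it at 0.1%, with no control liver on either side of the comparison. The comparison held 9 of the 24 arrays in the series, 6 at 0.5% and 3 at 0.1%. The arrays were selected on their similarity to one another: replicates 1, 3 and 6 at 0.1% were left out because they were near-identical to replicate 1 at 1.0%, so the labels of 2 diets stood on what read as 1 RNA. At 0.5%, replicates 1, 2, 3 and 6 were averaged into 1 sample (the 4-array 0.5% sample) and replicates 4 and 5 into another (the 2-array 0.5% sample). The 0.1% diet was represented by replicates 2, 4 and 5, each a sample of its own, which set 2 samples against 3.

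All animals were male BALB/c mice, obtained at 6 weeks of age and kept on a standard chow before the experiment. Both groups then ate the same AIN-93G purified diet for 14 days and differed in its phloridzin content, 0.1% or 0.5%. The labels describe 6 mice per diet, housed 3 to a cage on a 12 h cycle, and liver collected under pentobarbital. They give no hour of killing, and all RNA is whole liver, in which fewer cells of a type and less RNA per cell cannot be told apart.

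Phloridzin is a glucoside of the apple dihydrochalcone phloretin. It competes with glucose for the sodium-glucose cotransporters of the gut and the kidney, so that in animals given enough of it glucose is absorbed more slowly and spilled into urine. The liver answers changes in glucose and insulin through transcription of the enzymes that make, store and break down glucose and fat. It also secretes the acute phase proteins, which are driven by interleukin 6 through STAT3 and by interleukin 1 through NF-kB. Many liver transcripts follow the circadian clock, in which CLOCK and BMAL1 switch on the Per, Cry and Rev-erb genes through E-boxes, and the products of these genes switch CLOCK and BMAL1 off again.

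The similarity of the arrays, on which the selection rests, is given as a description with no test. Over 1463 bright genes, the SD of the log2 difference was 0.047 to 0.0563 between replicates 1 and 6, 2 and 3, and 4 and 5 at 0.5%, and 0.0519 to 0.0577 among the 4 arrays left out. Replicates 1 or 6 against 2 or 3 at 0.5% stood at 0.136 to 0.137, between these values and the 0.164 of the closest arrays of different samples. They were joined here, and the values without the join are given where they change a call. The 2 resulting 0.5% samples differed by 0.326 to 0.346 and the 3 samples at 0.1% by 0.264 to 0.45. Of the samples kept, 0.1% replicate 5 was the closest to the 4 arrays left out, at 0.219 to 0.222. The first principal component, with 25.4% of the variance, set 0.1% replicate 5 apart, and the second, with 13.2%, set 0.1% replicate 4 apart. The 3′ over 5′ signal of beta-actin, a sign of RNA integrity, was 2.32 on the log2 scale in 0.1% replicate 4, against 1.48 to 1.78 in the other 4 samples and 1.31 to 1.54 in control liver. Its mean did not separate the diets (exact permutation test, two-sided, p = 0.9, where 0.1 is the smallest p that 2 against 3 samples allow), and that of Gapdh gave p = 1. The hepatocyte transcripts Alb, Apoa1, Ttr and Cps1 read between 12.92 and 13.97 in all 5 samples. Whether the 5 samples are 5 mice is not known, so every p-value below measures a spread between RNA samples. For the limma p-values and SE that spread was estimated over 11 samples of 4 diets, control and 1.0% liver included.

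All levels are log2 signals after quantile normalization, on which 3.00 is the floor, and 1 unit is a 2-fold step. Of 13118 genes, 0 (0%) passed the threshold, an adjusted p under 0.05 in limma over all genes. The smallest adjusted p was 0.0678. An unadjusted p under 0.05 was reached by 1407 genes (10.7%), 697 of them (5.31%) with a higher and 710 (5.41%) with a lower signal at 0.5%. In 1619 genes (12.3%) both 0.5% samples lay above all 3 samples at 0.1%, and in 1553 (11.8%) both lay below. The median difference over all genes was -0.0017. Differences below are therefore given as values that did not pass the test, each as the log2 difference, 0.5% minus 0.1%, ± SE.

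When replicates 1 and 6 and replicates 2 and 3 at 0.5% were instead counted as 2 samples, 44 genes passed the same threshold, 27 of them higher (0.206% of those tested) and 17 lower (0.13%). If these arrays hold 1 RNA, that fit counts it more than once and its p-values are too small. The genes called in it are marked as such in the text.

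Among genes with a higher signal at 0.5%, the lowest p-value belonged to Nsd3, a histone H3 lysine 36 methyltransferase. Nsd3 read 7.12, 6.61 and 6.35 in 0.1% replicates 2, 4 and 5 and 7.76 and 8.16 in the 4-array and 2-array 0.5% samples (1.26 ± 0.21; limma adjusted p = 0.186). The samples of the diets did not overlap, but 5 other probe sets of the gene gave differences from -0.24 to 0.88, and 3 of those 5 were positive. Zfp36l1, which promotes decay of AU-rich mRNAs, read 10.43, 10.41 and 10.28 at 0.1% and 11.002 and 10.84 at 0.5% (0.55 ± 0.11; adjusted p = 0.186). Both 0.5% samples lay near the control mean of 11.02, and it was the 0.1% samples that lay lower. Cldn1, a tight junction protein, read 8.94, 8.998 and 8.90 at 0.1% and 9.95 and 9.50 at 0.5% (0.78 ± 0.16), beside a control mean of 9.49. Again the control level stood with 0.5%, and a second probe set of the gene gave 0.48.

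Cpeb4, which binds the 3′ ends of mRNAs and controls their polyadenylation, read 9.23, 9.22 and 8.97 at 0.1% and 10.03 and 9.97 at 0.5% (0.86 ± 0.18). Crot, the peroxisomal carnitine octanoyltransferase, read 11.51, 11.52 and 11.30 at 0.1% and 12.04 and 12.01 at 0.5% (0.58 ± 0.13). In both genes the 2 samples at 0.5% lay closer to each other than to any sample at 0.1%. Mrc1, the mannose receptor of macrophages and sinusoidal endothelium, read 7.55, 7.30 and 6.71 against 8.11 and 8.30 (1.02 ± 0.22), with control liver at 7.89. Scara5, a ferritin receptor, read 6.496, 6.97 and 6.93 against 8.09 and 7.53 (1.01 ± 0.26). The 1.0% samples read 8.33 and 8.04 for Scara5, and the 4 control samples 6.63 to 7.53, which reached the 2-array 0.5% value. A second Scara5 probe set gave 0.44, and 2 others of Cpeb4 gave 0.53 and 0.06. Nsd3, Zfp36l1, Cldn1, Cpeb4, Crot and Mrc1 were among the genes called with the 0.5% arrays unjoined, and Scara5 was not.

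**Figure D1:**
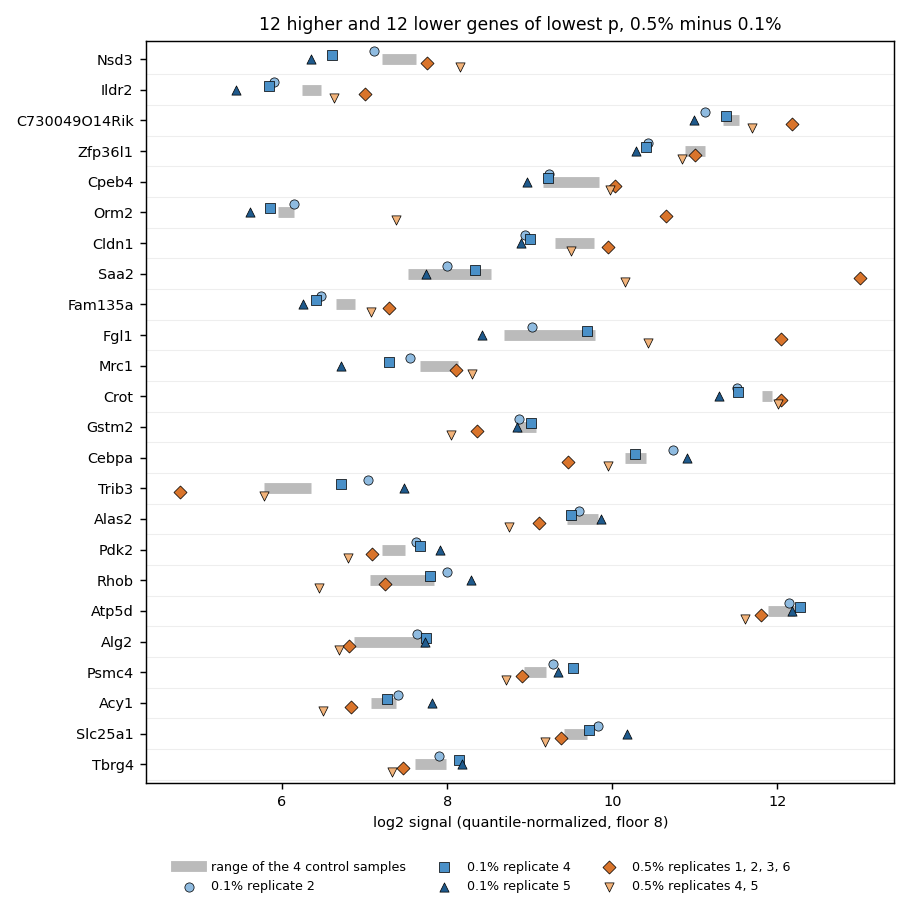
Log2 signal of the 12 higher and 12 lower genes of lowest p among those with a mean log2 signal of at least 6, in each of the 3 samples at 0.1% (blue) and 2 at 0.5% (orange), with the range of the 4 control samples as a grey bar. None passed the adjusted threshold, and the blue and orange points do not overlap in any of the 24 genes, which were chosen for their p-values.

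Rbmxl2, an RNA-binding protein known from the testis, had the lowest p-value of all genes. It read 4.90, 5.19 and 5.33 at 0.1% and 3.00 in both samples at 0.5%, which is the floor (-2.14 ± 0.30; limma adjusted p = 0.0678). Control samples read 4.56 to 5.50 and the 1.0% samples 3.13 and 3.00, so control liver and 0.1% stood together above 0.5% and 1.0%. The 0.5% values sit at the floor, and with a floor of 32 the Rbmxl2 difference was -0.17. It ran from -3.15 to that value over the alternatives. Without scaling, with a floor of 1, with the mean over a gene's probe sets, with no trend in the variance or without control replicate 5, Rbmxl2 passed the threshold, and it was called with the 0.5% arrays unjoined (adjusted p = 0.00518).

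Cebpa, a transcription factor that maintains hepatocyte identity, read 10.73, 10.28 and 10.91 at 0.1% and 9.47 and 9.95 at 0.5% (-0.93 ± 0.18; limma adjusted p = 0.186). Both 0.5% samples lay below all 3 at 0.1% and below the control mean of 10.27. Trib3, a pseudokinase induced by ATF4 that binds AKT, read 7.04, 6.72 and 7.48 at 0.1% and 4.77 and 5.79 at 0.5% (-1.80 ± 0.37). Control liver, at 6.13 ± 0.27 (SD, n = 4), lay between the diets, and a second Trib3 probe set gave -1.91. Herpud1, which takes part in degradation of misfolded proteins of the endoplasmic reticulum, read 11.44, 11.18 and 11.50 against 9.35 and 10.94 (-1.23 ± 0.33). The 4-array 0.5% sample set most of that difference, while the 2-array sample stood just under the 0.1% values.

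Slc25a1, the mitochondrial citrate carrier that exports acetyl units for fat synthesis, read 9.82, 9.72 and 10.18 at 0.1% and 9.37 and 9.19 at 0.5% (-0.62 ± 0.14). Pdk2, a kinase that shuts off pyruvate dehydrogenase, read 7.62, 7.67 and 7.92 against 7.09 and 6.80 (-0.79 ± 0.17). Gsk3a, which inhibits glycogen synthase, read 8.64, 8.97 and 8.91 against 8.10 and 8.18 (-0.70 ± 0.16), with control liver at 7.91. In these genes, as in Rhob, a small GTPase (-1.17 ± 0.25), and Atp5d, a subunit of ATP synthase (-0.49 ± 0.11), no sample at 0.5% reached any sample at 0.1%. Cebpa, Trib3, Herpud1, Slc25a1, Pdk2 and Gsk3a were called with the 0.5% arrays unjoined, at adjusted p-values from 0.0203 to 0.0456, and Rhob and Atp5d were not.

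Genes were also described by lists of known pathways. The plot of list scores gives the mean of a list's members in each sample relative to control liver, and the paragraphs that follow take the lists by role, beside the 49.8% of all genes that were higher, the 12.3% with both 0.5% samples above and the 11.8% with both below.

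**Figure D2:**
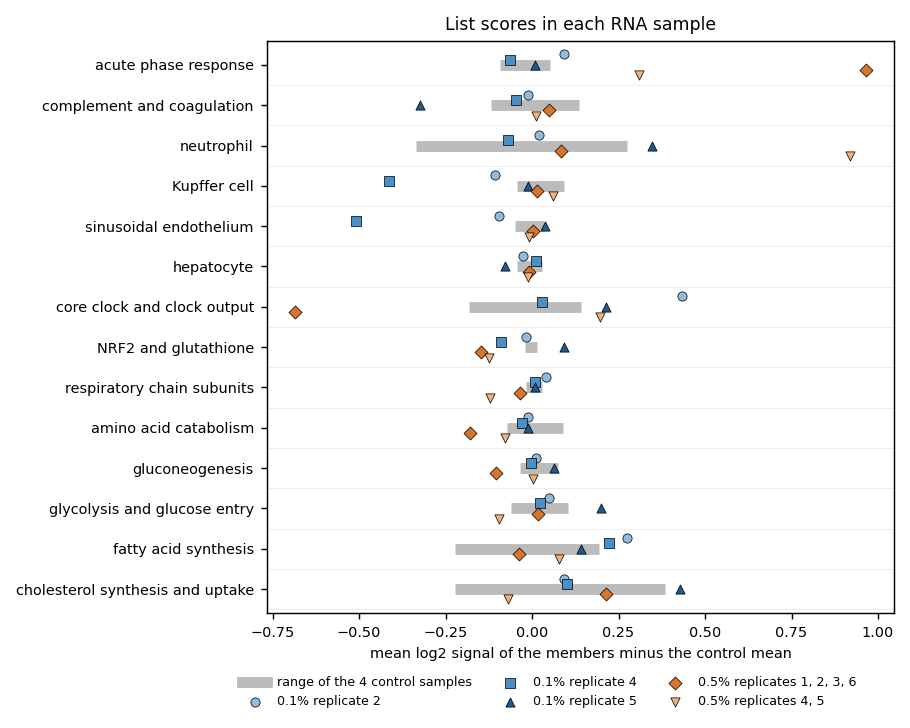
Score of 14 gene lists in each sample, as the mean log2 signal of the members minus the control mean, with the range of the 4 control samples in grey. The acute phase scores at 0.5% (0.96 and 0.31) lie above the samples at 0.1% and control, whereas the clock scores at 0.5% (-0.68 and 0.20) lie on both sides of the control range.

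The acute phase genes had higher signals at 0.5% as a group, and more so in the 4-array sample. Of 29 measured members 26 were higher and 3 lower, with a median difference of 0.45, and in 12 members (41.4%) both 0.5% samples lay above all samples at 0.1%, against 0 in which both lay below. The list's score relative to control was 0.09, -0.06 and 0.01 at 0.1% and 0.96 and 0.31 at 0.5%, with control samples from -0.09 to 0.05. The 1.0% samples scored 0.29 and -0.03. No member passed the adjusted threshold, and 10 had an unadjusted p under 0.05.

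Saa2 and Orm2 had the widest gaps. Saa2, a serum amyloid A, read 7.998, 8.33 and 7.75 at 0.1% and 13.004 and 10.15 at 0.5% (3.55 ± 0.74; limma adjusted p = 0.186). Both 0.5% samples lay above every sample at 0.1%, and the 4-array sample lay far above the 2-array one. Saa1 read 11.39, 11.60 and 10.74 against 13.46 and 12.17 (1.57 ± 0.49). The single Saa2 probe set is of the class marked x, which can also read related transcripts, so these values may not be independent. Orm2, an acid glycoprotein, read 6.15, 5.85 and 5.61 at 0.1% and 10.64 and 7.38 at 0.5% (3.14 ± 0.65), and Orm1 read 12.25, 12.04 and 11.87 against 12.94 and 12.26 (0.55 ± 0.17). For Orm1 the 2-array sample was level with 0.1% replicate 2, at 12.26 against 12.25.

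Lcn2, which binds bacterial siderophores, read 6.17, 6.68 and 6.75 at 0.1% and 10.44 and 7.08 at 0.5% (2.23 ± 0.69). Fgl1, a fibrinogen-like protein secreted by hepatocytes that was not a member of the list, read 9.03, 9.70 and 8.42 at 0.1% and 12.05 and 10.43 at 0.5% (2.19 ± 0.46). In both, the 4-array sample stood far above the 2-array sample, which itself stood above 0.1%. Apcs, the serum amyloid P component, read 12.24, 12.06 and 12.11 against 13.02 and 12.53 (0.64 ± 0.15), and Itih4, an inter-alpha-trypsin inhibitor heavy chain, read 12.78, 12.59 and 12.77 against 13.23 and 12.98 (0.39 ± 0.10). Steap4, a metalloreductase induced by interleukin 6, was higher in the 2-array sample than in the 4-array one, with 8.53, 8.22 and 8.33 at 0.1% and 8.64 and 8.98 at 0.5% (0.45 ± 0.20). Saa2, Orm2, Apcs and Itih4 were the 4 members called with the 0.5% arrays unjoined, and Fgl1 was called there too.

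Other members overlapped between the diets. The metallothionein Mt2 read 5.42, 4.84 and 6.84 at 0.1% and 7.87 and 5.83 at 0.5% (1.15 ± 0.56), with 0.1% replicate 5 above the 2-array sample. Haptoglobin (Hp) read 12.74, 12.77 and 12.80 against 13.13 and 12.75, and C-reactive protein (Crp) 11.71, 11.55 and 11.56 against 11.88 and 11.53, where only the 4-array sample stood apart. The 3 members with lower signals were Hamp, which makes the iron hormone hepcidin (-0.17 ± 0.18), Socs3, the feedback inhibitor of STAT3 (-0.48 ± 0.56), and Il1rn, the interleukin 1 receptor antagonist (-0.54 ± 0.38). Socs3 read 9.03, 7.76 and 7.67 at 0.1%, 6.74 in the 4-array and 8.60 in the 2-array 0.5% sample, so the sample with the highest amyloid signals had the lowest Socs3 signal.

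Without the 4-array sample, 20 of 29 members were higher, with a median of 0.17, and 12 lay above all 3 samples at 0.1% (beside 23.9% of all genes) and 3 below (beside 23.6%). Without the 2-array sample the median was 0.59. The direction of the median held without each of the 5 samples in turn. Neutrophil markers, which could mark inflammatory cells in the tissue, stood apart in the other sample: the score of the 8 measured markers of 12 was 0.92 in the 2-array and 0.08 in the 4-array 0.5% sample, 0.02, -0.07 and 0.35 at 0.1% and -0.34 to 0.27 in control liver. S100a8 read 7.29 in the 2-array sample against 5.96 in the 4-array one. The summed neutrophil signal ran from 7.401 to 8.01 at 0.1%, 7.73 to 8.73 at 0.5% and 7.24 to 7.86 in control liver. The acute phase signal was highest in the 0.5% sample whose neutrophil markers lay within the control range. The part of inflammatory cells in the acute phase signal was not tested.

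**Figure D3:**
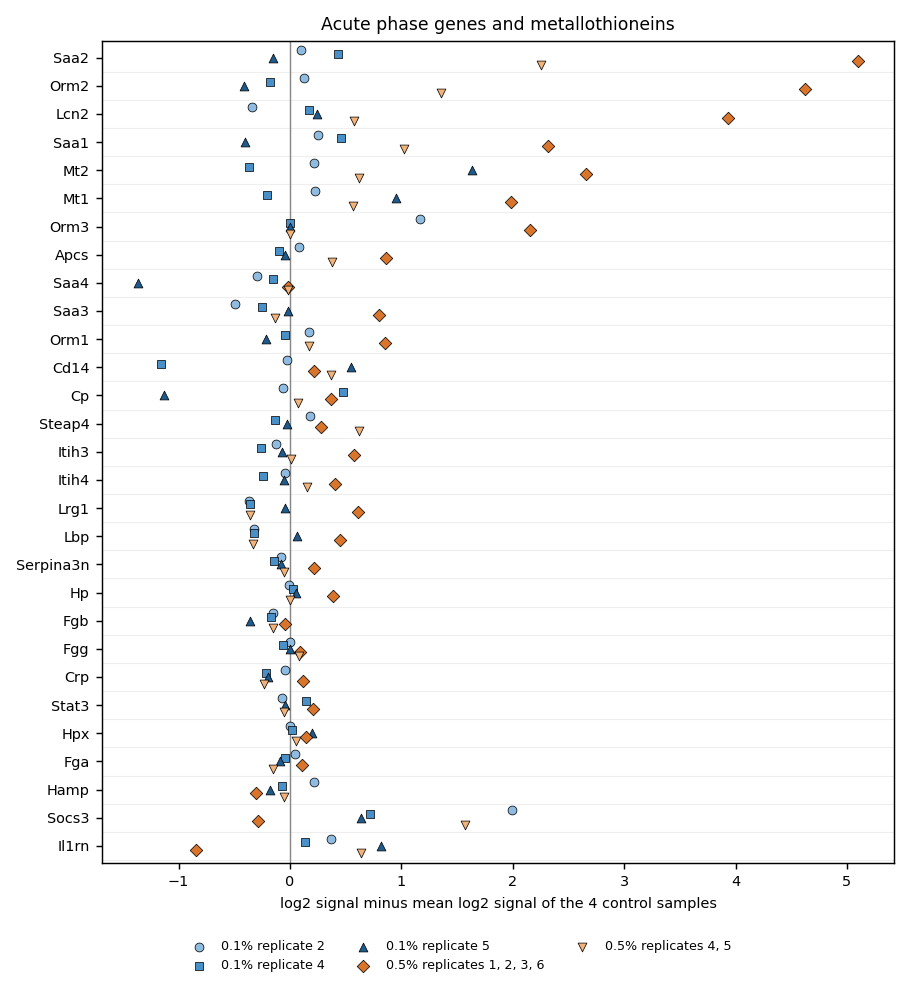
Log2 signal of the 29 measured acute phase and metallothionein genes in each sample, minus the mean of the 4 control samples, ordered by the difference between the diets. The 4-array 0.5% sample (dark orange) is highest for Saa2, Orm2, Lcn2, Saa1, Mt2 and Mt1, and the 2-array sample (light orange) lies between it and the 0.1% samples for Saa2, Orm2, Lcn2 and Saa1.

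To set the group's behaviour beside its regulatory letters, the 250 bases upstream of the annotated start were searched on both strands for a STAT motif (TTCNNNGAA). These windows were found for 25 of the 29 members, in RefSeq's annotation of the GRCm38.p6 assembly, which is the C57BL/6J and not the BALB/c genome. The letters occurred in 7 members, against 7.02% of all 32851 upstream windows of the same length. A member counted if the window of any of its starts matched, whereas the share is of single windows. Those 7 included Hamp and Socs3, which had lower signals at 0.5%, and Apcs, Fgb and Fga. Itih4 and Steap4 are shown because both had higher signals in each 0.5% sample and hold these letters, which begin 51 and 116 bases before the start. The capitals mark the matches, and in Itih4 also TAGGTCA, a ROR element named here for the clock genes below, at 109 bases. No printed match overlaps another. The windows lie at chr14:30886226-30886475 on the plus strand for Itih4 and at chr5:7960222-7960471 on the plus strand for Steap4, and each runs 5′ to 3′ and ends at the base before the start.
Itih4: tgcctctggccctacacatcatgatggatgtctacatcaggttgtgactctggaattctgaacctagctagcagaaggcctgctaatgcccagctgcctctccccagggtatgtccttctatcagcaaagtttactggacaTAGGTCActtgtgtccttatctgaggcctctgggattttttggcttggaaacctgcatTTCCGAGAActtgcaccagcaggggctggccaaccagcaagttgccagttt
Steap4: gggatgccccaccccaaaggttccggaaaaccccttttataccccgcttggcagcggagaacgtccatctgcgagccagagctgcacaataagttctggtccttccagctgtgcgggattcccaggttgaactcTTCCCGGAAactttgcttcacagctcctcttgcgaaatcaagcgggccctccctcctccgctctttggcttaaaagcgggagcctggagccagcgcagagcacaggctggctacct
The windows of Saa1, Saa2, Orm2 and Lcn2 held no STAT match. A match is a description of letters in this window and not a tested site.

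The clock genes differed most between the 2 samples at 0.5%. Of 21 measured members 7 were higher and 14 lower, with a median difference of -0.38; both 0.5% samples lay above all samples at 0.1% in 2 members and below in 4. The list's score was 0.43, 0.03 and 0.21 at 0.1%, -0.68 in the 4-array and 0.20 in the 2-array 0.5% sample, and -0.18 to 0.14 in control liver. Without the 4-array sample the direction turned: 13 of 21 members were higher and the median was 0.21.

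The repressors are taken first. Nr1d1, which encodes the Rev-erb alpha repressor of Bmal1, read 7.04, 6.02 and 7.35 at 0.1% and 3.56 and 5.51 at 0.5% (-2.27 ± 0.45; limma adjusted p = 0.186), and was called with the 0.5% arrays unjoined (adjusted p = 0.0203). Both 0.5% samples lay below all samples at 0.1% and below control liver, at 6.60 ± 0.10 (SD, n = 4). Per1 read 4.60, 5.20 and 5.43 against 3.91 and 3.17 (-1.53 ± 0.44). Its lower 0.5% value lay near the floor of 3.00, and the difference ran from -2.58 to -0.21 over the alternatives. For Per1, control liver (3.54) and the 1.0% samples (3.99 and 3.00) stood with 0.5%. Per3 read 6.53, 5.20 and 6.48 against 3.50 and 5.24 (-1.70 ± 0.47), and its 2-array 0.5% value overlapped 0.1% replicate 4.

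The activator Arntl, which encodes BMAL1 and is the target of Nr1d1's repression, read 5.56, 5.79 and 6.70 at 0.1% and 7.06 and 6.78 at 0.5% (0.90 ± 0.31). Both samples lay above 0.1%, the opposite direction to Nr1d1 between the diets. Within the 0.1% diet, replicate 5 had the highest signal of both genes. The part of Nr1d1 in the Arntl signal was not tested. Clock read 6.78, 7.31 and 6.998 against 7.36 and 7.25 (0.27 ± 0.18), which overlapped.

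The output genes split the 0.5% samples. Dbp, a clock-driven transcription factor that acts through D-boxes, read 11.18, 9.24 and 9.88 at 0.1%, 5.24 in the 4-array and 10.62 in the 2-array 0.5% sample (-2.17 ± 1.13; adjusted p = 0.502). One 0.5% sample lay far below and the other among the 0.1% samples, so the difference turned to 0.52 without the 4-array sample. The same split was seen in Nr1d2, with 8.02 and 10.10 at 0.5% against 9.51 to 10.32 at 0.1%, in Tef, with 6.73 and 8.57 against 8.15 to 8.73, and in Usp2, with 4.12 and 6.45 against 5.66 to 7.76. Wee1, which holds back mitosis, read 4.67 and 6.45 against 5.85 to 7.11. The acute phase and clock scores thus departed from control most in 1 and the same 0.5% sample, and the part of either in the other was not tested.

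**Figure D4:**
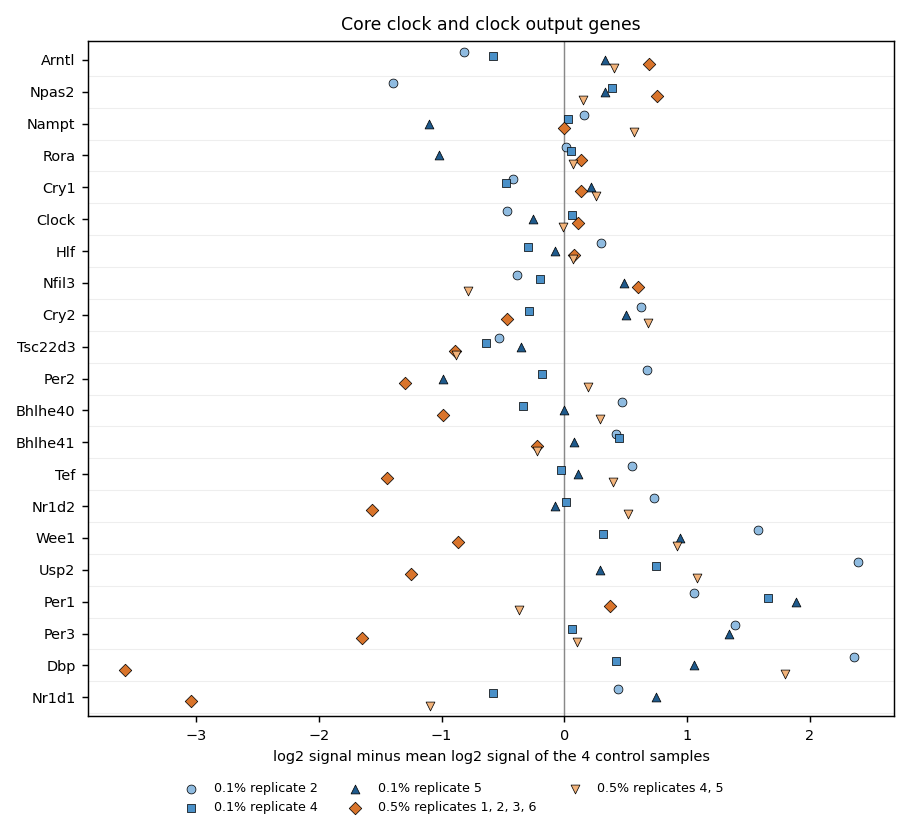
Log2 signal of the 21 measured clock genes in each sample minus the mean of the 4 control samples, ordered by the difference between the diets. The 4-array 0.5% sample (dark orange) is lowest for Dbp, Nr1d1, Per3, Usp2, Nr1d2 and Tef, while the 2-array sample (light orange) lies with the 0.1% samples for Dbp, Nr1d2 and Tef.

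The upstream windows of the clock genes, found for 18 of the 21, were searched for an E-box (CACGTG), a D-box (TTATGTAA) and the ROR element (TAGGTCA). The E-box occurred in 4 members, the D-box in 1 and the ROR element in 1, against 6.02%, 0.819% and 2.23% of all windows. Here too a member counted if the window of any of its starts matched, and several members have more than 1 start. Per1 and Per3 are shown because their signals were lower at 0.5% and because they hold different inputs of the clock. The window of Per1's first listed start, at chr11:69098699-69098948 on the plus strand, holds an E-box 166 bases before the start. That of Per3, at chr4:151044666-151044915 on the minus strand, holds 2 D-boxes at 205 and 158 bases. The capitals mark these motifs, which do not overlap.
Per1: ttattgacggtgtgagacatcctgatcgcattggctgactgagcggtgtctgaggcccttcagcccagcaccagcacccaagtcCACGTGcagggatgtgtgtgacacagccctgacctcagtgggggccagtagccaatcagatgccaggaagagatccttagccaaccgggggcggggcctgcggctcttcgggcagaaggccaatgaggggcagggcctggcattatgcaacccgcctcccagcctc
Per3: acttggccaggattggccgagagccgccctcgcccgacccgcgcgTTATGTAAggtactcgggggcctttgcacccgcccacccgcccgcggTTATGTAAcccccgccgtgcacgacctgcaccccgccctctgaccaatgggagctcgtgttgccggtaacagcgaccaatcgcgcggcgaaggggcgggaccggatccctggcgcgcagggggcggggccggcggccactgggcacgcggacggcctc
In 0.1% replicates 2, 4 and 5, Dbp read 11.18, 9.24 and 9.88 and Per3 read 6.53, 5.20 and 6.48. In the 2-array 0.5% sample Dbp was at 10.62 and Per3 at 5.24. Both were at their lowest in the 4-array sample, at 5.24 for Dbp and 3.50 for Per3. The part of Dbp in the Per3 signal was not tested. The window of Nr1d1 held none of these letters.

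Glutathione transferases, which couple glutathione to electrophiles, had lower signals at 0.5% in several members. Of 23 measured genes of the NRF2 and glutathione list 8 were higher and 15 lower (median -0.08), with both 0.5% samples below all samples at 0.1% in 7 (30.4%) and above in 2. Gstm2 read 8.87, 9.02 and 8.84 at 0.1% and 8.36 and 8.04 at 0.5% (-0.71 ± 0.14; limma adjusted p = 0.186), with control liver at 8.93 and the 1.0% samples at 9.09 and 8.86. Only the 0.5% samples stood lower, and Gstm2 was called with the arrays unjoined. Gstm1 read 11.96, 11.98 and 11.94 against 11.57 and 11.55 (-0.40 ± 0.10), and Gstt1 10.85, 10.99 and 11.09 against 10.51 and 10.44 (-0.50 ± 0.13). Gstm4, Gstm6, Gsta2 and the glutathione synthetase Gss also lay below without overlap. The transferases of the Gstm family are close in sequence, so their probe sets may share signal.

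The members above were Gclc, the rate-limiting subunit of glutathione synthesis, with 10.61, 10.51 and 10.67 at 0.1% and 11.06 and 10.92 at 0.5% (0.39 ± 0.11), and Gsta3 (0.32 ± 0.13). The NRF2 targets Nqo1, Hmox1 and Srxn1 overlapped between the diets. Nqo1 read 4.86, 4.53 and 4.98 against 4.42 and 4.79 (-0.19 ± 0.28), Hmox1 differed by 0.21 ± 0.43 and Srxn1 by -0.06 ± 0.18.

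Subunits of the respiratory chain had slightly lower signals at 0.5%. Of 33 measured subunits 9 were higher and 24 lower, with a median of -0.10, and both 0.5% samples lay below 0.1% in 11 (33.3%) and above in 0. The list's score was 0.04, 0.01 and 0.01 at 0.1% and -0.04 and -0.12 at 0.5%, with control samples from -0.02 to 0.03. Atp5d read 12.14, 12.28 and 12.17 at 0.1% and 11.80 and 11.61 at 0.5%, with the 1.0% samples at 11.60 and 11.55. The succinate dehydrogenase subunits Sdhb and Sdhc stood at -0.38 ± 0.11 and -0.82 ± 0.23, but Sdha at 0.23 ± 0.21 and Sdhd at 0.06 ± 0.11. A second Sdhc probe set gave -0.05, and a second one of Atp5d -0.22. Of the genes behind the other complexes, Cox6b1 stood at -0.29 ± 0.09, Ndufv1 at -0.27 ± 0.11 and Uqcrc1 at -0.33 ± 0.17.

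Glycolysis and glucose entry had 15 measured genes, 6 higher and 9 lower, with 5 below without overlap and 1 above (median -0.11). Besides Pdk2 these were Aldoa, an aldolase (-0.65 ± 0.16), Khk, the fructokinase (-0.45 ± 0.12), Pfkl, the liver phosphofructokinase (-0.86 ± 0.25), and Pklr, the liver pyruvate kinase (-0.29 ± 0.16). Khk read 11.46, 11.42 and 11.38 at 0.1% and 11.11 and 10.84 at 0.5%. The member above was Gckr, the inhibitor of glucokinase, with 9.65, 9.43 and 9.35 against 9.75 and 9.89 (0.34 ± 0.12).

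Among 14 measured gluconeogenesis genes 3 were higher and 11 lower (median -0.16). The key enzymes overlapped: Pck1 read 11.59, 11.35 and 11.08 at 0.1% and 10.71 and 11.21 at 0.5% (-0.38 ± 0.20), and G6pc 9.99, 11.27 and 10.13 against 11.13 and 10.62 (0.41 ± 0.33). The alanine aminotransferases Gpt (-0.35 ± 0.12) and Gpt2 (-0.38 ± 0.16) lay below and Ppargc1a, a coactivator of the programme, above (0.68 ± 0.27), although 1 of Ppargc1a's 4 other probe sets gave -0.01. In glycogen metabolism 6 of 14 genes were higher and 8 lower (median -0.02), with Gsk3a the member of lowest p.

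Fatty acid synthesis genes were mostly lower at 0.5%, by small amounts. Of 22 measured members 3 were higher and 19 lower (median -0.12), with 4 below without overlap and 0 above. Fasn, the fatty acid synthase, read 9.67, 10.21 and 10.16 at 0.1% and 9.87 and 9.29 at 0.5% (-0.43 ± 0.26), and Dgat1, which forms triglyceride, 7.08, 6.93 and 7.66 against 6.71 and 6.79 (-0.48 ± 0.21). Srebf1, the transcription factor of the pathway, stood at 0.16 ± 0.20 and Acacb at -0.08 ± 0.25. The list's score was 0.27, 0.22 and 0.14 at 0.1% and -0.04 and 0.08 at 0.5%, and only 0.1% replicates 2 and 4 lay outside the control range of -0.22 to 0.19. In cholesterol synthesis and uptake 3 of 20 were higher and 17 lower (median -0.14), with Tm7sf2 (-0.44 ± 0.19) and Fdft1 (-0.35 ± 0.17) as examples. Without the 2-array sample 11 of 20 were higher and the median was 0.01.

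Of 9 measured glucose carriers, phloridzin's own targets among them, 3 were higher and 6 lower (median -0.16). Slc5a1, the intestinal cotransporter SGLT1, read 3.41, 3.00 and 3.30 at 0.1% and 3.68 and 4.16 at 0.5% (0.68 ± 0.32), within reach of the floor. Slc5a2, the renal SGLT2, read 4.66, 5.15 and 5.16 against 4.99 and 4.85 (-0.07 ± 0.33), which overlapped. Slc2a2, the main hepatic glucose carrier, read 11.65, 11.18 and 11.47 against 11.01 and 11.48 (-0.19 ± 0.16), which also overlapped. Slc2a9, a urate and hexose carrier, read 6.53, 6.31 and 6.30 against 5.67 and 5.74 (-0.67 ± 0.20).

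In the growth hormone and STAT5 axis, the members Cish and Bcl6 varied widely within a diet. Cish, a STAT5-induced inhibitor of cytokine signalling, read 6.46, 6.60 and 6.46 at 0.1% and 8.08 and 8.36 at 0.5% (1.71 ± 0.59; limma adjusted p = 0.36), with control samples from 5.56 to 7.93 and the 1.0% samples at 8.53 and 6.66. Bcl6, a repressor that opposes STAT5, read 8.54, 8.67 and 8.13 against 6.66 and 7.52 (-1.36 ± 0.55), with control samples from 6.89 to 9.16. In both genes the control samples alone were spread more widely than the difference between the diets. Cish was above and Bcl6 below without overlap. Igf1 stood at 0.23 ± 0.11, and its 3 other probe sets gave 0.30 to 0.86. Over the 20 measured members 12 were higher and 8 lower (median 0.17), with 4 above and 4 below without overlap.

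In bile acid synthesis, Cyp7a1, the rate-limiting enzyme, read 6.95, 7.17 and 4.94 at 0.1% and 8.07 and 7.52 at 0.5% (1.44 ± 0.52), with 0.1% replicate 5 far below the other samples. Akr1d1, a reductase of the same pathway, read 9.41, 9.11 and 8.44 against 9.55 and 9.85 (0.71 ± 0.23). Nr0b2, which represses Cyp7a1, stood at -0.46 ± 0.22 with overlap. Over the list 11 of 20 were higher (median 0.03).

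Of the immediate early genes 12 of 27 were higher and 15 lower (median -0.18), with 6 above without overlap and 2 below. The median was 0.02 without 0.1% replicate 5 and 0.08 without the 4-array 0.5% sample. Jun read 7.07, 6.87 and 7.21 at 0.1% and 7.84 and 7.85 at 0.5% (0.79 ± 0.20), and Dusp1, a phosphatase of MAP kinases, 9.17, 9.05 and 8.90 against 9.22 and 9.86 (0.50 ± 0.19), both without overlap. For Dusp1 the control mean of 10.40 lay above all 5 samples. Nfkbia, the NF-kB inhibitor, read 10.38, 10.66 and 10.53 against 9.92 and 9.83 (-0.65 ± 0.18), and Junb stood at -1.14 ± 0.34. Nfkbia and Junb were the 2 members below without overlap.

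Amino acid catabolism and urea cycle genes were higher in 7 and lower in 16 of 23 (median -0.12), with both 0.5% samples below 0.1% in 6 (26.1%) and above in 1, and the median ran from -0.19 to -0.08 over the alternatives. Pericentral hepatocyte genes were higher in 7 of 17 (median -0.11), with 5 (29.4%) below without overlap and 2 above, but without the 4-array 0.5% sample the median was 0.10. Interferon response genes were higher in 16 of 26 (median 0.08), with 4 above without overlap and 0 below.

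Xenobiotic response genes were higher in 9 of 20 (median -0.05), with Tiparp at 0.88 ± 0.23 and Cyp1a2, both driven by the aryl hydrocarbon receptor, at -0.42 ± 0.17. Of Tiparp's 2 other probe sets, 1 gave -0.15. Chaperones of the endoplasmic reticulum and ATF4 targets were higher in 11 of 24 (median -0.07), and fatty acid oxidation genes in 11 of 23 (median -0.01). Insulin and IGF axis genes were higher in 7 of 18 (median -0.10) and heat shock chaperones in 8 of 18 (median -0.11, and 0.11 without 0.1% replicate 4). Cell cycle genes were higher in 14 of 25 (median 0.01), iron and heme genes in 13 of 20 (median 0.04) and ribosomal protein genes in 7 of 20 (median -0.05). Periportal hepatocyte genes were higher in 7 of 16 (median -0.05).

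Complement and coagulation factors, which hepatocytes secrete, were higher in 20 of 28 (median 0.18), with both 0.5% samples above 0.1% in 8 (28.6%) and below in 1. C8a read 12.17, 12.24 and 11.29 at 0.1% and 12.52 and 12.75 at 0.5% (0.73 ± 0.24), and F5, coagulation factor V, 10.85, 10.86 and 9.45 against 11.15 and 11.29 (0.83 ± 0.34). In both genes 0.1% replicate 5 lay below the other 4 samples, and a second F5 probe set gave 0.23. The list's score was -0.32 in that sample, -0.01 and -0.05 in 0.1% replicates 2 and 4 and 0.05 and 0.01 at 0.5%, and without it the median was 0.05.

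Markers of Kupffer cells, the resident macrophages, were higher in 11 of 14 (median 0.17), with 4 above without overlap and 0 below. Cd163, a scavenger receptor, read 5.94, 5.72 and 5.48 at 0.1% and 6.30 and 6.73 at 0.5% (0.80 ± 0.20), and Vsig4 8.48, 8.25 and 8.12 against 8.77 and 8.89 (0.54 ± 0.14). Other defining markers overlapped: Clec4f stood at 0.13 ± 0.13, Adgre1 at 0.06 ± 0.17 and C1qa at -0.03 ± 0.24. The score was -0.41 in 0.1% replicate 4, -0.11 and -0.01 in replicates 2 and 5, 0.01 and 0.06 at 0.5% and -0.04 to 0.09 in control liver. The summed signal of the 14 measured markers of 15 ran from 12.14 to 12.37 at 0.1%, 12.40 to 12.50 at 0.5% and 12.30 to 12.49 in control liver. Sinusoidal endothelial markers likewise were higher in 11 of 14 (median 0.20) and stood at -0.51 in 0.1% replicate 4, the sample with the highest actin 3′ over 5′ signal, against -0.10 to 0.04 in the other 4 samples. Their summed signal, of 14 markers of 14, ran from 11 to 11.43 at 0.1%, stood at 11.44 in both samples at 0.5% and ran from 11.43 to 11.45 in control liver. Without replicate 4 the medians were 0.13 for Kupffer cells and 0.07 for the endothelium. The part of RNA integrity in these values was not tested.

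Among other cell types, 5 of 5 measured cholangiocyte markers of 10 were higher (median 0.17), led by Onecut1, a liver transcription factor (1.08 ± 0.43). Without 0.1% replicate 5, 3 of the 5 were higher, with a median of 0.01. Of 6 erythroid markers 1 was higher (median -0.31). Alas2, the erythroid enzyme of heme synthesis, read 9.59, 9.49 and 9.86 at 0.1% and 9.11 and 8.75 at 0.5% (-0.72 ± 0.15), and was called with the arrays unjoined. Stellate cell markers were higher in 7 of 13 (median 0.04), platelet markers in 3 of 6 (median 0.01), B and plasma cell markers in 2 of 6 (median -0.03) and T and NK cell markers in 0 of 3 (median -0.35). Hepatocyte markers were higher in 3 of 10 (median -0.02). Pancreatic acinar, adipocyte and skeletal muscle markers had 3, 1 and 2 measured members, with medians of -0.04, 0.05 and -0.06.

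Signals also varied with the genomic span of the genes, most of all in 0.1% replicate 5. When 13048 genes with a span in RefSeq's GRCm38.p6 annotation were split into 4 equal bins by the length of the gene in the genome, the median difference was -0.09 in the shortest bin, -0.04 and 0.03 in the next ones and 0.11 in the longest. Relative to control, 0.1% replicate 5 stood at 0.22 in the shortest and -0.10 in the longest bin, whereas the other samples stood between -0.05 and 0.02 and between -0.04 and 0.08. Control samples sloped in both directions, from -0.05 in the shortest to 0.03 in the longest bin in replicates 1 and 3, and from 0.04 to -0.04 in replicate 5. Without 0.1% replicate 5 the gradient between the diets ran from -0.03 to 0.08. Acute phase genes were among the shorter ones, with a median span of 4.26 kb against 22.2 kb for all genes, and had higher signals. Respiratory chain genes, with a median of 7.69 kb, had lower signals, in the direction of the gradient. The share of the span in the values of any gene was not tested.

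**Figure D5:**
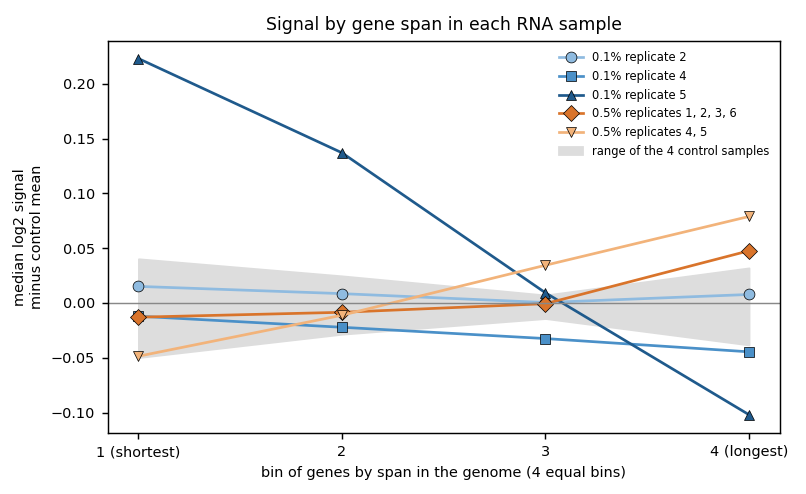
Median log2 signal minus the control mean in 4 equal bins of genes by genomic span, for each sample, with the range of the 4 control samples shaded. 0.1% replicate 5 runs from 0.22 in the shortest bin to -0.10 in the longest, while the 2-array 0.5% sample runs the other way, from -0.05 to 0.08.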

How the data were processed

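Liver cRNA was hybridised to 1-colour Affymetrix mouse arrays of 45101 probe sets, per the labels' protocols. The deposited table holds 1 linear intensity per probe set and array; how the authors summarised probes, corrected background or scaled arrays is not given in the sources used here. Array medians ran from 9.49 to 18.0. All 24 arrays were quantile-normalized, floored at 8 and log2-transformed, so that changes of dim genes are understated (5.44% of tested values were at the floor). Control probe sets (64) and the lowest 40% by mean were left out. GEO's platform annotation gave 1 gene for 34958 probe sets, several for 932 and none for 9160, and each of 13118 genes took its brightest probe set. Near-identical arrays were averaged. Less similar arrays were joined in 2 diets. At 0.5%, replicates 1 and 6 were joined with 2 and 3 (SD of the log2 difference 0.136 to 0.137). At 1.0%, replicates 2 and 3 were joined with 5 and 6 (SD 0.108 to 0.112). limma 3.58.1 (R 4.3.3, lmFit and eBayes with trend) was fitted over 11 samples of 4 diets. Control and 1.0% samples entered the spread only (7 residual degrees of freedom). The test was two-sided with Benjamini-Hochberg adjustment. The fit was also run on simulated independent samples with large planted differences. That run does not bear on smaller differences or on arrays that share RNA. No scan dates were used.

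Named genes were up to 12 per direction by p among those with a mean log2 signal of at least 6 (none was called), up to 3 per list by p, and a panel of genes from the series' other comparisons; all acute phase and clock members may be named, and other list members were named after their values were seen. The members, the samples and the 39 gene lists were chosen with earlier results of these data known, so a list's direction is no independent support. The number of arrays limits the precision.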

Additional observations from a re-analysis of the deposited data

Results flagged for a closer look

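Among the 105 named genes, 6 had a control sample set apart from the other 3 by more than Dixon's critical value for 4 samples, where chance alone gives about 1 in 20. Control samples entered the comparison only through the estimate of the spread. Dusp1 read 10.78 in 1 control sample against 10.266 to 10.273 in the others, and Acaa1b, a peroxisomal thiolase, 13.01 against 12.73 to 12.75. Smad7, an inhibitor of TGF-beta signalling, read 6.96 against 5.51 to 5.67. Psmc4, a proteasome ATPase, read 8.93 against 9.19 to 9.20, Khk 10.96 against 11.19 to 11.22 and G6pc 10.89 against 11.12 to 11.16.

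The RNA left out of every group, labelled 0.1% on 3 arrays and 1.0% on 1, had a clock score of 0.41 relative to control, above the -0.18 to 0.14 of the control samples. This score lay near the 0.43 of 0.1% replicate 2, while replicates 4 and 5 scored 0.03 and 0.21. Over the bright genes, however, the left-out RNA was closest to 0.1% replicate 5 (SD of the log2 difference 0.219 to 0.222). Its SD against replicate 2 was 0.368 to 0.37.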

How the results depend on the processing

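The count of called genes, 0, became 44 with the 0.5% and 1.0% arrays unjoined and 3978 with all 24 arrays as separate samples. It became 4 without scaling (Saa2 and Orm2 higher, Rbmxl2 and Wdtc1 lower), 1 with a floor of 1 and 5 with a floor of 32. The count was 14 without the filter, 1 with the mean over probe sets and 2 without the trend. It was 0 with the 5 samples of the 2 diets alone, the left-out RNA added, scaling to the median or the 75th percentile, a stricter filter, probe sets marked x or s left out, and robust eBayes. Leaving out each of 11 samples gave 0 to 7 calls (7 without the 2-array 0.5% sample, Saa2, Orm2, Lcn2, Nr1d1 and Herpud1 among them; 2 without 0.1% replicate 4; 1 without control replicate 5). The count at an unadjusted p under 0.05, 1407, became 733 with the 5 samples alone, 542 without scaling (31% of them higher), 5420 with 24 arrays and 756 to 2090 with a sample left out, the lowest without the 2-array 0.5% sample.

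A fit of 20 separate arrays with the replicate block called 750 genes, with 3088 at the unadjusted threshold; the numbers do not pair the samples (correlations of same-numbered 0.1% and 0.5% arrays were -0.09, -0.03 and -0.03), and the fit counts repeat arrays of 1 RNA as separate samples.

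Of 2819 values of named genes under 27 alternatives, 10 turned direction, in 6 genes. Acacb stood at 0.10 with 24 arrays (-0.32 to 0.15 with a sample left out), Srebf1 at -0.13 with 24 arrays (-0.24 to 0.56), Mcm6 at -0.28 with a floor of 1 and Tiparp at -0.15 without probe sets marked x or s. With a sample left out Igfbp1 ran from -0.42 to 1.06 and Dbp from -4.86 to 0.52. The acute phase median ran from 0.17 to 0.59 and never turned; the clock median ran from -0.75 to 0.21, turning without the 4-array 0.5% sample. Causes were not tested.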
